A study of Mus musculus with 9 samples.

Results

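Tgm3, Scel and 6 other genes of the cornified and squamous epithelial barrier (Tgm1, Krt4, Krt13, Sprr1a, Sprr3 and Ivl) were examined in the main olfactory epithelium of wild-type, Ms4a6c knockout and Ms4a cluster knockout mice. The 8 genes were taken by symbol from the 55291 genes of the deposited table. Tgm3 and Scel were chosen by their counts in the Ms4a6c knockout and wild-type libraries, Tgm3 as higher and Scel as lower in the knockout, and the other 6 because they belong to the same kind of tissue. All values that involve Ms4a6c knockout mice are therefore given for these 8 genes as a description with no test. The Ms4a cluster knockout mice, whose counts were not used to choose Tgm3 and Scel, were tested against the wild type. The same wild-type mice entered that choice, so for Tgm3 and Scel this test is not independent of it. Each gene was also set beside the summed level of other squamous epithelium markers in the same libraries.

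RNA was sequenced from whole dissected olfactory epithelia of 9 mice aged 8 to 12 weeks, 3 per genotype, all labelled C57BL/6. The Ms4a6c knockout mice (Ms4a6c-/-) carried a deletion made by homologous recombination, the Ms4a cluster knockout mice (Ms4a cluster-/-) carried a CRISPR/Cas9 deletion of the Ms4a genes, Ms4a6c included, and the wild-type mice were littermate controls. Each knockout was 1 line, and both knockouts were compared with the same 3 wild-type mice. The knockout line whose litters these wild-type mice came from is not stated. Genotype therefore cannot be told apart from line or litter. Ms4a6c itself had 54.0, 90.3 and 81.5 expected counts in the wild-type mice, 0, 2.35 and 2 in the Ms4a6c knockout mice and 0 in all 3 cluster knockout mice. Libraries held between 13954591 and 21987174 counts, and levels are given as CPM, the counts of a gene scaled to a common library total. Bpifb9b, a nasal gland transcript, took 10.4% of the counts of wild-type mouse 1 and 10.2% of those of cluster knockout mouse 2, against 0.03 to 3.28% in the other 7 libraries, and results that rest on these 2 libraries are given with and without them. CPM values were scaled by the trimmed mean of M values (TMM), which lessens the weight of such a transcript. On this scale 3 counts corresponded to between 0.123 CPM in Ms4a6c knockout mouse 1 and 0.299 CPM in cluster knockout mouse 2.

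Squamous epithelia, such as the epidermis and the lining of the nasal vestibule, build a barrier as their cells move outward and die. Basal cells that carry Krt5 and Krt14 switch to other keratins, make precursor proteins such as involucrin, loricrin and the small proline-rich (SPRR) proteins, and join these at the cell border by transglutaminases, which link glutamine to lysine side chains. The olfactory epithelium is not cornified, but it has basal cells with Krt5 and Krt14. In bulk tissue, fewer cells of a type and less RNA per cell cannot be told apart.

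The 8 genes lie on 5 chromosomes of the mouse genome build GRCm38. Tgm3 is at chr2:130012349-130050399 on the forward strand, and Scel is at chr14:103513342-103612797 on the forward strand. Sprr3 (chr3:92456502-92458720), Sprr1a (chr3:92483952-92485895) and Ivl (chr3:92570902-92573735) share the reverse strand of the epidermal differentiation complex, the gene cluster that holds most cornified envelope precursors. The others are Tgm1 (chr14:55700009-55713926), Krt4 (chr15:101918535-101924735) and Krt13 (chr11:100117327-100121566), all on the reverse strand. A same-strand search for stretches of 100 bases or longer with 90% identity found no match to any of the 8 among transcripts of the other genes in the table. The only genes that overlap them are Mir6339 within Tgm3, listed at 0 in every mouse, and Gm49067 at Tgm1, with a mean of 0.0212 CPM, both on the opposite strand.

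The 250 bases before the RefSeq transcription start are shown for Tgm3, Scel, Sprr1a, Sprr3 and Ivl, the 5 genes whose Ms4a6c knockout mice all lay on one side of the other 6 mice. They are written 5′ to 3′ on the strand of the gene in build GRCm38.p6, at chr2:130012090-130012339 for Tgm3, chr14:103513091-103513340 for Scel, chr3:92485882-92486131 for Sprr1a, chr3:92458721-92458970 for Sprr3 and chr3:92573736-92573985 for Ivl. Capitals mark the letters TGANTCA, the element that AP-1 factors bind, and TATAAA, the TATA box.
Tgm3: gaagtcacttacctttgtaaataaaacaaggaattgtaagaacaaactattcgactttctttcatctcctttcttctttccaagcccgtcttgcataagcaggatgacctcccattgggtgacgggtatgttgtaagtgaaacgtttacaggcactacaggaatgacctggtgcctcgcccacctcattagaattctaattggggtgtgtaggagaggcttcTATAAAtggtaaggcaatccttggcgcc
Scel: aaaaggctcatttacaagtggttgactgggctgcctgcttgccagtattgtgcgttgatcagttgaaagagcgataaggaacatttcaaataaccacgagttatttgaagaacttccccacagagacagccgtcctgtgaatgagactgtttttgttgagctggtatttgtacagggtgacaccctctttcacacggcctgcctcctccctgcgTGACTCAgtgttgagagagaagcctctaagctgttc
Sprr1a: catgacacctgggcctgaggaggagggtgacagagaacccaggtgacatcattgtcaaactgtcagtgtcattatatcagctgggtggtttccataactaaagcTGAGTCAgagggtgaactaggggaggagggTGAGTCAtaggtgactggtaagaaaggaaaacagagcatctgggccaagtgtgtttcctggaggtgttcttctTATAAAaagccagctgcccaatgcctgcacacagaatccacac
Sprr3: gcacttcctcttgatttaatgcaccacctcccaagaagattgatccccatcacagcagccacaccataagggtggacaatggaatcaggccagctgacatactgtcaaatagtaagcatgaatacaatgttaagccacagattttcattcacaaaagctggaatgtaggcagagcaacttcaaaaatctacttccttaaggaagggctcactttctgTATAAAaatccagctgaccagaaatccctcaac
Ivl: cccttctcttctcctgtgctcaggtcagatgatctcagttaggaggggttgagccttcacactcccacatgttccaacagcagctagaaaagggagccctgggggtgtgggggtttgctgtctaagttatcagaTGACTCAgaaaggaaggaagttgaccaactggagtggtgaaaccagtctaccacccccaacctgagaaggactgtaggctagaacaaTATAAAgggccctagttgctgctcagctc

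The letters TGANTCA began 36 bases before the start of Scel (position -36), at -146 and -116 in Sprr1a and at -116 in Ivl, and were not found in the windows of Tgm3, Sprr3 or Tgm1. Krt13, which has 2 windows in the table, held them at -196 in one and at -183 and -34 in the other. The TATA box letters began at -28 in Tgm3, -43 in Sprr1a, -33 in Sprr3 and -29 in Ivl, and were not found in Scel, Tgm1 or Krt13. Both strands were searched in windows of 300 bases, from 250 before to 50 after the start. Of all 32851 RefSeq windows, 7.81% held TGANTCA and 13.6% held TATAAA. AACCGGTT, the element of Grainyhead-like factors, was in 0.146% of all windows and in none of the members, and CACCC, letters that Krüppel-like factors bind, was in the windows of all 7 members that had one and in 57.5% of all windows. The 2 marked motifs do not overlap each other in these sequences, and binding was not measured.

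Tgm3 encodes transglutaminase 3, the enzyme that cross-links envelope precursors in the epidermis and the hair follicle. Its level was 0.85, 0.28 and 0.23 CPM in the wild-type mice, 3.12, 5.09 and 4.01 CPM in the Ms4a6c knockout mice and 0.25, 0.40 and 0.30 CPM in the cluster knockout mice. The 3 Ms4a6c knockout mice lay above all 6 others, with no overlap, and the cluster knockout values fell among those of the wild type. The counts behind these values were 12, 5 and 4 in the wild type, 76, 82 and 63 in the Ms4a6c knockout and 5, 4 and 6 in the cluster knockout. The means were 0.453 ± 0.348 CPM (SD, n = 3) in the wild type, 4.07 ± 0.987 CPM in the Ms4a6c knockout and 0.317 ± 0.0754 CPM in the cluster knockout. In the edgeR model the Ms4a6c knockout stood 9.19-fold above the wild type, a log2 fold change of 3.20 with a standard error (SE) of 0.44. Wild-type mouse 1, the wild-type library with the most Bpifb9b, was also the one with the most Tgm3, and without it the log2 fold change was 3.97. The log2 fold change of the cluster knockout over the wild type was -0.50 (SE 0.54, 95% interval -1.70 to 0.70, adjusted p = 0.991), and it was 0.26 without wild-type mouse 1. The log2 fold change of the cluster knockout over the Ms4a6c knockout was -3.70 (SE 0.46).

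Scel encodes sciellin, a precursor of the cornified envelope that is found in stratified epithelia. It was at 4.76, 4.44 and 4.49 CPM in the wild-type mice, 1.76, 1.24 and 1.59 CPM in the Ms4a6c knockout mice and 5.16, 5.68 and 4.76 CPM in the cluster knockout mice. Here the 3 Ms4a6c knockout mice lay below all 6 others, in the direction opposite to Tgm3, and the wild-type and cluster knockout values met at their edge. The means were 4.56 ± 0.174 CPM (SD, n = 3), 1.53 ± 0.266 CPM and 5.20 ± 0.461 CPM in the same order. The log2 fold change of the Ms4a6c knockout over the wild type was -1.56 (SE 0.18), a level 2.95-fold lower. For the cluster knockout over the wild type it was 0.18 (SE 0.17, 95% interval -0.20 to 0.56, adjusted p = 0.976), and for the cluster knockout over the Ms4a6c knockout it was 1.74 (SE 0.18). Scel had a smaller SE than Tgm3 in each of the 3 comparisons.

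**Figure D1:**
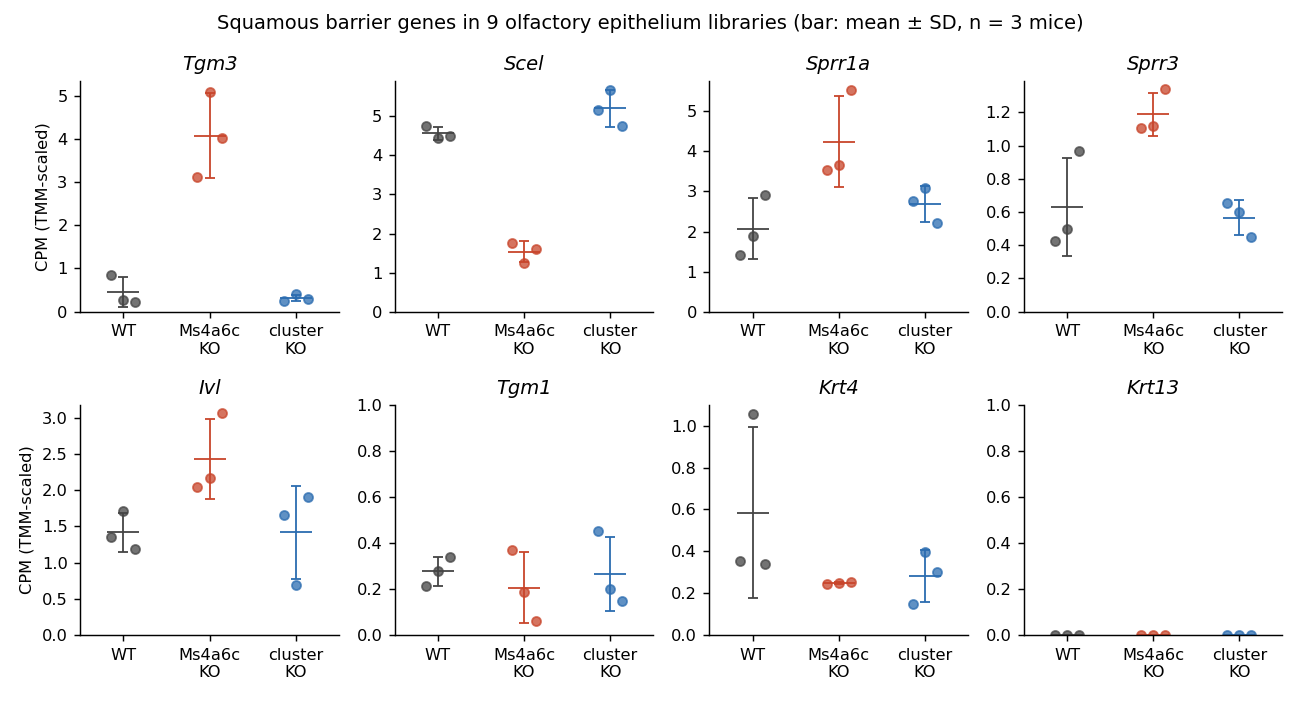
Level of each of the 8 genes in each of the 9 mice, in TMM-scaled CPM on a linear axis that starts at 0, by genotype. Points are mice and bars are the mean and SD of 3 mice. Tgm3 stands apart upward and Scel downward in the Ms4a6c knockout, while Krt13 is at 0 in all 9 mice.

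Sprr1a, Sprr3 and Ivl encode precursors that transglutaminases join into the envelope. SPRR1A and SPRR3 are small proline-rich proteins, and IVL is involucrin. Sprr1a was at 1.42, 1.89 and 2.90 CPM in the wild-type mice, 3.53, 3.66 and 5.54 CPM in the Ms4a6c knockout mice and 2.76, 3.09 and 2.21 CPM in the cluster knockout mice. Sprr3 was at 0.43, 0.50 and 0.97 CPM in the wild-type mice, 1.11, 1.12 and 1.34 CPM in the Ms4a6c knockout mice and 0.65, 0.60 and 0.45 CPM in the cluster knockout mice. Ivl was at 1.35, 1.72 and 1.19 CPM in the wild-type mice, 2.05, 2.17 and 3.06 CPM in the Ms4a6c knockout mice and 1.65, 0.70 and 1.90 CPM in the cluster knockout mice. For all 3 genes the Ms4a6c knockout mice lay above the other 6 mice, and Ms4a6c knockout mouse 3 was the highest of the 9. The margin was small: the lowest Ms4a6c knockout mouse and the highest of the other 6 stood at 3.53 and 3.09 CPM for Sprr1a, 1.11 and 0.97 CPM for Sprr3, and 2.05 and 1.90 CPM for Ivl.

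The log2 fold changes of the Ms4a6c knockout over the wild type were 1.02 (SE 0.29) for Sprr1a, 0.89 (SE 0.37) for Sprr3 and 0.76 (SE 0.34) for Ivl, each smaller than that of Tgm3. Without wild-type mouse 3, the wild-type mouse with the most Sprr1a and Sprr3, they were 1.34 for Sprr1a and 1.34 for Sprr3. The cluster knockout did not differ from the wild type for Sprr1a beyond the spread between mice (log2 fold change 0.35, SE 0.30, 95% interval -0.31 to 1.02, adjusted p = 0.973), nor for Sprr3 (-0.17, SE 0.40, 95% interval -1.05 to 0.71, adjusted p = 1.0) or Ivl (0.05, SE 0.35, 95% interval -0.73 to 0.82, adjusted p = 1.0). The interval of Ivl is wide enough to hold the value it had in the Ms4a6c knockout, while those of Sprr1a and Sprr3 end below theirs, that of Sprr1a narrowly. The log2 fold changes of the cluster knockout over the Ms4a6c knockout were -0.67 for Sprr1a, -1.06 for Sprr3 and -0.71 for Ivl.

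Tgm1, Krt4 and Krt13 were at or near the limit of detection. Tgm1, the membrane-bound transglutaminase of the epidermis, ranged from 0.064 to 0.45 CPM over the 9 mice, on 1 to 9 counts per mouse. Its means were 0.277 ± 0.064 CPM (SD, n = 3) in the wild type, 0.206 ± 0.154 CPM in the Ms4a6c knockout and 0.267 ± 0.161 CPM in the cluster knockout, and the mice overlapped in every comparison. The log2 fold changes against the wild type were -0.35 (SE 0.68) in the Ms4a6c knockout, or -1.11 without Ms4a6c knockout mouse 1, and -0.03 (SE 0.68, 95% interval -1.55 to 1.49, adjusted p = 1.0) in the cluster knockout. A difference in Tgm1 of the size seen for Sprr1a or Ivl was not detectable at this depth.

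Krt4, a keratin of the upper layers of internal stratified epithelia, was at 0.36, 1.05 and 0.34 CPM in the wild-type mice, at 0.25 CPM in each of the 3 Ms4a6c knockout mice and at 0.15, 0.40 and 0.30 CPM in the cluster knockout mice. Its log2 fold changes against the wild type were -1.22 (SE 0.58) in the Ms4a6c knockout and -1.11 (SE 0.59, 95% interval -2.42 to 0.20, adjusted p = 0.968) in the cluster knockout. Wild-type mouse 2, with 19 counts, set much of both values, which were -0.47 and -0.36 without it. Krt13, the partner keratin of Krt4, had 0 counts in all 9 mice, and the limit of 3 counts allows up to 0.299 CPM in cluster knockout mouse 2, where 1 count weighs the most. With Krt13 at 0 and Krt4 at 3 to 19 counts per mouse, the keratin pair that defines internal squamous epithelium was at or near 0 in these libraries, so that the squamous part of the label rests on Scel, Sprr1a, Sprr3 and Ivl, and the genes are referred to by name.

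Compared per kilobase of the longest transcript, the wild-type level was highest for Sprr1a (2.57 CPM per kb), followed by Scel (1.87), Ivl (0.74), Sprr3 (0.516), Krt4 (0.274), Tgm3 (0.11) and Tgm1 (0.097), with Krt13 at 0. The values of the 3 wild-type mice overlapped between neighbours in this order except for Scel against Ivl and for Tgm1 against Krt13. In the Ms4a6c knockout mice, Tgm3 stood at 0.985 ± 0.239 CPM per kb (SD, n = 3), beside 0.971 ± 0.107 for Sprr3 and 0.627 ± 0.109 for Scel. Tgm3 was thus above Scel per kilobase in the Ms4a6c knockout and below it in the wild type and the cluster knockout.

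Of the 8 genes, 7 passed the filter of 10 counts summed over the 9 mice, and Krt13 did not. For the cluster knockout against the wild type, 0 of the 7 passed an adjusted p of 0.05 in edgeR, where 0.0258% of all 23225 tested genes did, and 0 were under an unadjusted p of 0.05, where 4.93% of all genes were. DESeq2 also called 0 of them. All 7 overlapped between the cluster knockout and the wild type, where 9.86% of all tested genes did not, and their median log2 fold change was -0.03 beside 0.01 for all tested genes. Over the alternative settings the adjusted p of these genes was between 0.570 and 1.0. For the Ms4a6c knockout against the wild type, the comparison behind the choice of Tgm3 and Scel, 4 genes lay wholly above (Tgm3, Sprr1a, Sprr3 and Ivl), 2 wholly below (Scel and Krt4) and 1 overlapped (Tgm1), beside 9.71% of all tested genes wholly above and 8.55% wholly below. For the cluster knockout against the Ms4a6c knockout, Scel lay wholly above, Tgm3, Sprr1a, Sprr3 and Ivl wholly below, and Tgm1 and Krt4 overlapped, beside 7.86% of all tested genes wholly above and 8.09% wholly below.

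**Figure D2:**
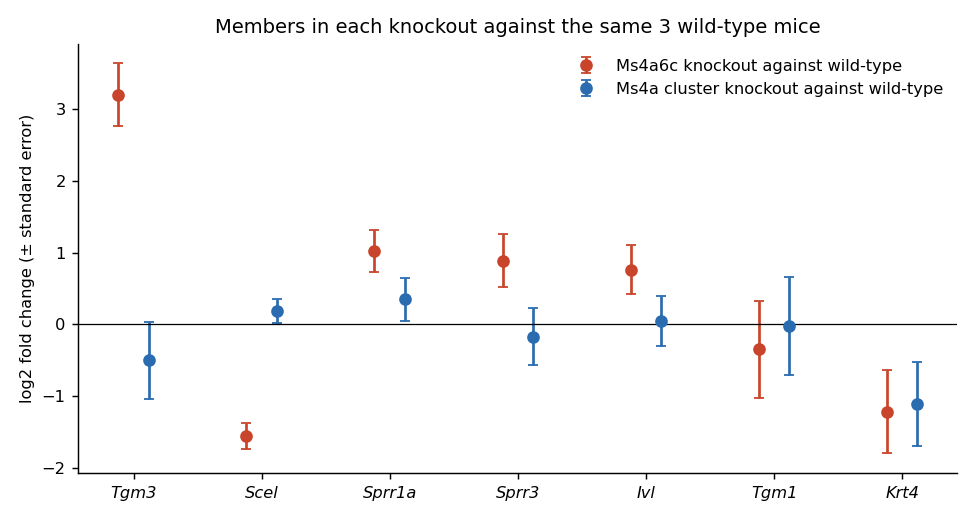
Log2 fold change of each of the 7 measurable genes against the same 3 wild-type mice, in red for the Ms4a6c knockout and in blue for the Ms4a cluster knockout, with bars of 1 standard error. Tgm3 at 3.20 and Scel at -1.56 in the Ms4a6c knockout lie farthest from 0 relative to their errors, and the cluster knockout values of all genes but Krt4 lie between -0.50 and 0.35.

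The other genes of the barrier were taken from 7 lists written by function, which hold 140 genes beside the 8, of which 74 could be tested. None of the 74 passed an adjusted p of 0.05 in any of the 3 comparisons, in edgeR, in DESeq2 or under the other alternatives run, beside 0.435% of all tested genes for the Ms4a6c knockout against the wild type and 0.443% between the knockouts. At an unadjusted p under 0.05, edgeR gave 9 of 74 (12.2%) in that comparison, beside 10.5% of all tested genes, 5 (6.8%) for the cluster knockout against the wild type, beside 4.93%, and 12 (16.2%) between the knockouts, beside 9.38%. Their median log2 fold changes were 0.006, -0.006 and -0.001 in the same order.

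Among the transglutaminases, the family of Tgm3 and Tgm1, Tgm2 was the most abundant, at 44.1 ± 5.51 CPM (SD, n = 3) in the wild type and 50.7 ± 5.32 CPM in the Ms4a6c knockout (log2 fold change 0.20, SE 0.11, adjusted p = 0.555). Tgm2 encodes tissue transglutaminase, which many cell types make. F13a1, the A chain of coagulation factor XIII, was at 4.77 ± 1.15 and 7.27 ± 1.64 CPM (log2 fold change 0.61, SE 0.22, adjusted p = 0.343). Tgm7 was at 1.72 ± 0.306 and 0.580 ± 0.181 CPM, a log2 fold change of -1.53 (SE 0.36, adjusted p = 0.141), which was the lowest adjusted p of the 74 genes in this comparison. The 6 testable relatives of Tgm3 and Tgm1 ran from -1.53 for Tgm7 to 1.66 for Epb42 (adjusted p = 0.448), with a median of 0.41, beside 3.20 for Tgm3. Tgm6, which lies next to Tgm3 at chr2:130112416-130154232 on the same strand, had too few counts to be tested, and Tgm7 lies on the same chromosome at chr2:121093565-121109795.

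The cornified envelope list held 52 genes with Scel, Sprr1a, Sprr3 and Ivl among them, and 31 of the 52, mostly late cornified envelope (LCE) and SPRR2 genes, were at 0 in all 9 mice. Of the 48 others, 8 could be tested, and 0 passed the test in each comparison. For the Ms4a6c knockout over the wild type, the log2 fold changes of these tested genes ran from -2.42 to 0.65, with a median of -0.11. Sprr2a2 (-2.42, adjusted p = 0.503) and Sprr1b (-1.91, adjusted p = 0.745, on 10 counts in all mice) went opposite to Sprr1a and Sprr3. Periplakin (Ppl), at 48.2 ± 4.41 CPM (SD, n = 3) in the wild type and 52.3 ± 3.94 CPM in the Ms4a6c knockout, had a log2 fold change of 0.12 (adjusted p = 0.719). Envoplakin (Evpl), at 7.85 ± 0.794 and 7.44 ± 0.577 CPM, had -0.08 (adjusted p = 0.908), and suprabasin (Sbsn), the third most abundant, had 0.22 (adjusted p = 0.834). Periplakin and envoplakin form the scaffold on which envelope precursors such as involucrin are laid down, and both are also made outside cornified tissue. Flg, which encodes filaggrin of the granular layer, had 1 count in all 9 mice together.

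Of the suprabasal keratins, the group of Krt4 and Krt13, Krt23 was the most abundant, at 87.0 ± 8.44 CPM (SD, n = 3) in the wild type and 80.4 ± 6.96 CPM in the Ms4a6c knockout, followed by Krt80 at 7.74 ± 0.775 and 7.87 ± 1.62 CPM and Krt10 at 4.30 ± 0.357 and 4.52 ± 0.243 CPM. Besides Krt4, 5 genes of this list could be tested, and 0 were called. Krt2 and Krt16 were at 0 in all mice, as Krt13 was. In the desmosome list (Jup, Dsp and Perp the most abundant, 11 genes tested), the protease and inhibitor list (Ctsd, Ctsl and St14, 16 tested), the barrier lipid list (Smpd1 and Sgms1 among the most abundant, 14 tested) and the list of regulators (Grhl1 and Ehf among the most abundant, 14 tested), 0 genes were called in each comparison. The median log2 fold changes of these 4 lists for the Ms4a6c knockout over the wild type lay between -0.004 and 0.016, beside -0.002 for all tested genes.

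**Figure D3:**
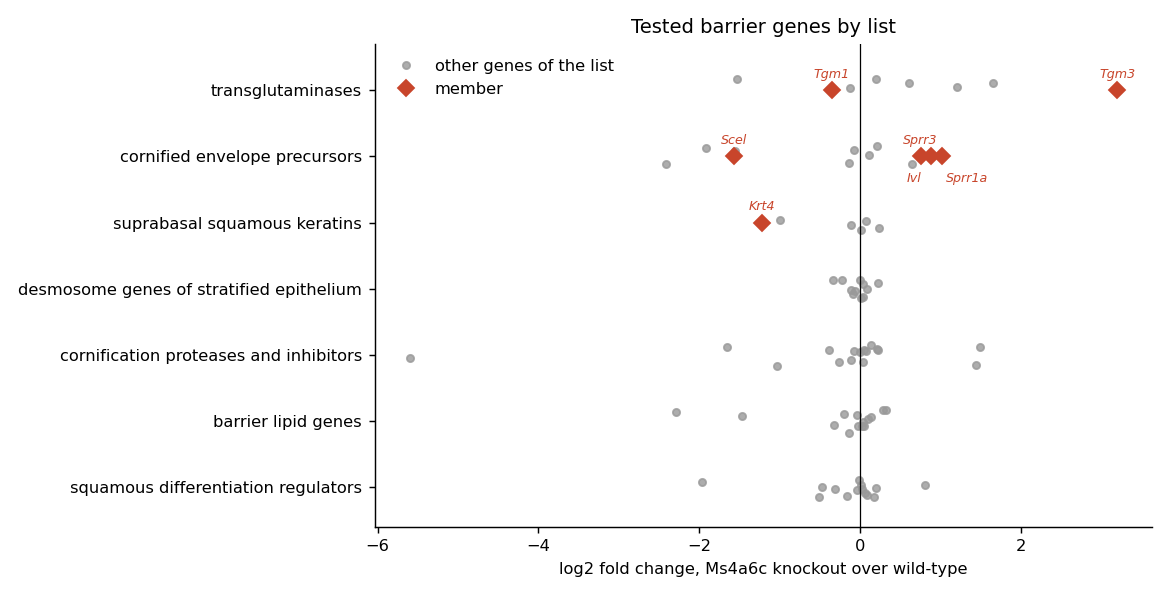
Log2 fold change of every testable gene of the 7 barrier lists in the Ms4a6c knockout over the wild type, with the 7 measurable members as diamonds and the other genes as grey points. Tgm3 lies to the right of all other genes shown, and none of the grey points passed an adjusted p of 0.05. Vertical scatter within a list only separates the points.

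To set the members beside other squamous markers in each dissection, the CPM of 32 squamous marker genes, none of them a member, were summed. The amount of squamous epithelium itself was not measured. Of the 32, 5 were at 0 in all mice (Krt16, Cnfn, Dsg1a, Calm4 and Gsdmc), 16 had enough counts to be tested, and 82.7% of the sum came from Dsc3, Mal and Sfn, which other epithelia also make. The sum was 122 to 131 CPM in the wild-type mice, 126 to 137 CPM in the Ms4a6c knockout mice and 119 to 130 CPM in the cluster knockout mice, and the genotypes overlapped. The Ms4a6c knockout exceeded the wild type by 5.42 CPM (exact two-sided permutation p = 0.3). The cluster knockout was below the wild type (difference -4.65 CPM, exact two-sided permutation p = 0.3) and below the Ms4a6c knockout (difference -10.1 CPM, exact two-sided permutation p = 0.2). With 3 mice against 3 this test cannot give a p below 0.1.

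Without Dsc3, Mal and Sfn, an alternative chosen after the data were examined, the sum was 17.5 to 27.9 CPM in the wild-type mice, 19.6 to 20.7 CPM in the Ms4a6c knockout mice and 19.1 to 35.8 CPM in the cluster knockout mice. Its mean was then lowest in the Ms4a6c knockout, at 20.1 CPM against 21.6 CPM in the wild type and 24.7 CPM in the cluster knockout, whereas the mean of the 32-gene sum was highest there. The 2 highest values of this shorter sum belonged to wild-type mouse 1 and cluster knockout mouse 2, the libraries with the most Bpifb9b. The order of the means rests on these 2 libraries. Wild-type mice 2 and 3 stood at 19.2 and 17.5 CPM, and cluster knockout mice 1 and 3 at 19.1 and 19.2 CPM. All of these lay below the 3 Ms4a6c knockout mice. The 3 Ms4a6c knockout mice lay within the range of the wild type in this sum only because that range holds wild-type mouse 1.

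With the logarithm of the 32-gene sum as a covariate in the edgeR model, the log2 fold change of the Ms4a6c knockout over the wild type was 3.21 for Tgm3 and -1.54 for Scel, beside 3.20 and -1.56 without it. The same covariate gave 0.82 for Sprr1a, 0.76 for Sprr3, 0.88 for Ivl and -1.44 for Krt4, beside 1.02, 0.89, 0.76 and -1.22. With the sum that leaves out Dsc3, Mal and Sfn as the covariate, the values were 3.40 for Tgm3, -1.54 for Scel, 1.01 for Sprr1a, 0.88 for Sprr3, 0.69 for Ivl and -1.22 for Krt4. Between the knockouts, the log2 fold change of Sprr1a was -0.67 with no covariate, -0.23 with the 32-gene sum and -0.63 with the shorter sum. The fitted values thus depended on which markers made up the sum, least of all for Scel.

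The relation of each level to the 32-gene sum, both as log2(CPM + 1), was tested over the 6 wild-type and cluster knockout mice, for the 7 measurable genes. For Tgm3 it was r = -0.227 (exact permutation p = 0.839, adjusted p = 0.911) and rho = -0.257 (exact permutation p = 0.658, adjusted p = 0.768), and for Scel r = -0.079 (exact permutation p = 0.836, adjusted p = 0.911) and rho = -0.143 (exact permutation p = 0.803, adjusted p = 0.803). Here r is Pearson's coefficient and rho Spearman's, and adjustment was over the 7 genes. For Sprr1a they were r = 0.31 (exact permutation p = 0.569, adjusted p = 0.911) and rho = 0.486 (exact permutation p = 0.356, adjusted p = 0.623), and for Sprr3 r = 0.469 (exact permutation p = 0.333, adjusted p = 0.777) and rho = 0.543 (exact permutation p = 0.297, adjusted p = 0.623). For Ivl they were r = -0.593 (exact permutation p = 0.142, adjusted p = 0.497) and rho = -0.771 (exact permutation p = 0.103, adjusted p = 0.623). Krt4 gave r = 0.604 (exact permutation p = 0.106, adjusted p = 0.497) and rho = 0.543 (exact permutation p = 0.297, adjusted p = 0.623), and Tgm1 gave r = 0.023 (exact permutation p = 0.911, adjusted p = 0.911) and rho = 0.257 (exact permutation p = 0.658, adjusted p = 0.768).

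None of the 7 relations passed the test, and with 6 mice only a strong one could have. Without the 2 mice farthest from the median sum, cluster knockout mice 1 and 3, r over the 4 mice left was -0.961 for Tgm3, 0.063 for Scel, 0.792 for Sprr1a, 0.592 for Sprr3, -0.21 for Ivl, 0.34 for Krt4 and 0.473 for Tgm1. Over all 9 mice, as a description with no test, r was 0.624 for Sprr1a, 0.676 for Sprr3, 0.227 for Ivl, 0.188 for Krt4 and -0.409 for Tgm1. For Tgm3 and Scel no value over 9 mice is given, since the mice fell into separate clusters by genotype. The points share their libraries and depth.

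**Figure D4:**
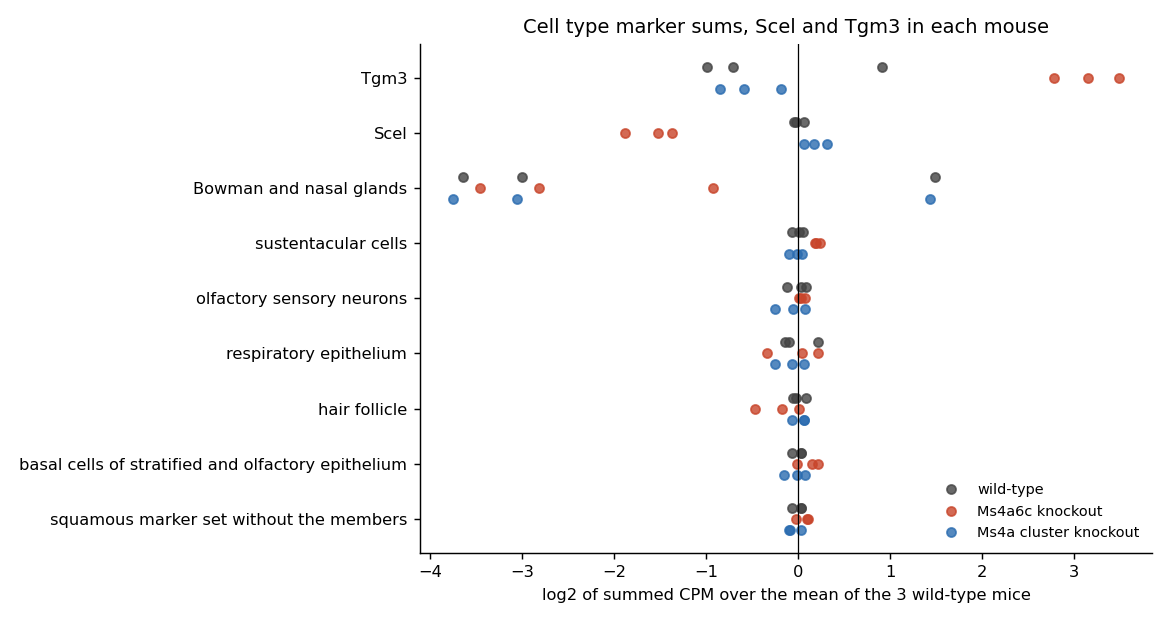
Level of Tgm3, Scel and the summed CPM of 7 cell type marker lists in each mouse, as the log2 ratio to the mean of the 3 wild-type mice, coloured by genotype. Tgm3 and Scel separate the Ms4a6c knockout mice from the rest in opposite directions, the squamous sum does not separate them, and the gland sum is highest in 1 wild-type and 1 cluster knockout mouse.

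Markers of other cell types in the dissection were set beside the members as well. The 6 basal cell markers, led by Krt5 at 55.6 ± 0.757 CPM (SD, n = 3) in the wild type, summed to 123 to 131 CPM in the wild-type mice and 127 to 148 CPM in the Ms4a6c knockout mice. The hair follicle markers, in which Krt72 was the most abundant and 3 of 8 were at 0, summed to 7.61 to 8.36 CPM and 5.73 to 7.94 CPM, in the wild-type and Ms4a6c knockout mice, and their part in the values of Tgm3 was not tested. The respiratory markers, led by Bpifa1, summed to 9473 to 12151 CPM and 8253 to 12126 CPM. The 8 sensory neuron markers, led by Omp, summed to 11704 to 13472 CPM and 12777 to 13355 CPM, and 1 of them, the G protein subunit Gng13, was lower in the Ms4a6c knockout (log2 fold change -0.89, adjusted p = 0.00121).

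The sustentacular markers, led by Ugt2a1, summed to 15815 to 17261 CPM in the wild type, 18799 to 19517 CPM in the Ms4a6c knockout and 15478 to 17003 CPM in the cluster knockout, so that this sum, like Tgm3, was higher in all 3 Ms4a6c knockout mice than in the other 6. None of its 6 genes passed an adjusted p of 0.05, and its part in the values of Tgm3 and Scel was not tested. The gland markers, led by Bpifb9b, summed to 5888 to 206061 CPM in the wild type, 6679 to 38817 CPM in the Ms4a6c knockout and 5472 to 198400 CPM in the cluster knockout. Without wild-type mouse 1 and cluster knockout mouse 2, the log2 fold change of Tgm3 was 3.97 for the Ms4a6c knockout and 0.12 for the cluster knockout over the wild type.

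The genes whose levels over the 9 mice were most like those of Tgm3, among 16537 genes with a mean of at least 1 CPM, were Gm7292 (Pearson r = 0.986 of log2(CPM + 1), over 9 mice), Gm8210 (0.985), Gm15387 (0.974), Rmdn3 (0.973) and Capza1-ps1 (0.973). For Scel they were Cd59a (0.99), Gm14226 (0.985), Snapc1 (0.984), Id2 (0.982) and Ahcy (0.982). None of these 10 is a barrier gene of the lists. Of the 10, 4 lie on chromosome 2, the chromosome of Tgm3: Rmdn3, which is like Tgm3, and Cd59a, Gm14226 and Ahcy, which are like Scel. Snapc1 and Id2 lie on chromosome 12. Beside Tgm3, chromosome 2 holds 1915 of the 23225 tested genes. Gm8210 had means of 0.384, 64.9 and 0.200 CPM in the wild type, the Ms4a6c knockout and the cluster knockout, and Gm14226 had 5.18, 0.014 and 6.38 CPM. The mice fall into clusters by genotype, so these values describe a shared separation of the Ms4a6c knockout mice from the other 6.

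The genes around each member were examined with the 20 nearest tested genes on each side. For the 8 members, 0 of these were called by edgeR in each of the 3 comparisons. Around Tgm3, 7 of 40 genes (17.5%) were under an unadjusted p of 0.05 for the Ms4a6c knockout against the wild type, all 7 with the higher level in the knockout, beside 10.5% of all tested genes. The log2 fold changes of the 40 ran from -0.92 to 1.82, short of the 3.20 of Tgm3. Around Scel, 6 of 40 (15.0%) were under that limit, and the 40 ran from -3.21 to 1.04. The 3 neighbours below the -1.56 of Scel had mean levels of 0.069 to 0.375 CPM, and the 28 neighbours with a mean of at least 1 CPM ran from -0.70 to 1.04. Around Tgm1, Krt4 and Krt13 there were 4, 2 and 3 of 40. Around Sprr1a and Ivl, 12 of the 38 neighbours that were not members (31.6%) were under that limit, 4 of them higher in the knockout, and around Sprr3 11 of 38 (28.9%), 3 of them higher. The neighbourhoods of Sprr1a, Sprr3 and Ivl are largely the same genes. For the cluster knockout against the wild type, 2 of 38 (5.3%) were under that limit around each of these 3, beside 4.93% of all tested genes, and 0 of 40 around Tgm3 and Scel.

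The nearest gene called between the Ms4a6c knockout and the wild type lay 2.79 Mb from Tgm3 (Ciao1, log2 fold change -0.36, adjusted p = 0.0255) and 27.3 Mb from Scel (Rps2-ps6, log2 fold change 4.10). Chromosome 2 held 27 called genes beside Tgm3 among 1915 tested (1.41%, beside 0.435% of all tested genes). Within 5 Mb of Tgm3, 1 of the 135 other tested genes was called (0.741%). For Sprr1a, Sprr3 and Ivl the nearest was H2bc21, a histone gene 3.65 to 3.76 Mb away (log2 fold change -0.71, adjusted p = 0.0124), and 7 called genes lay within 5 Mb of each of them, among the 280 or 281 tested there (2.49% for Sprr1a), of 13 (1.13%) on chromosome 3. Whether the Ms4a6c knockout line carries DNA of another strain in these regions, which would change what the values of Tgm3, Sprr1a, Sprr3 and Ivl stand for, was not tested. Ciao1, Rps2-ps6 and H2bc21 were named after their values were seen. The Ms4a6c locus itself is at chr19:11469366-11482192, and none of the 8 genes is on chromosome 19.

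**Figure D5:**
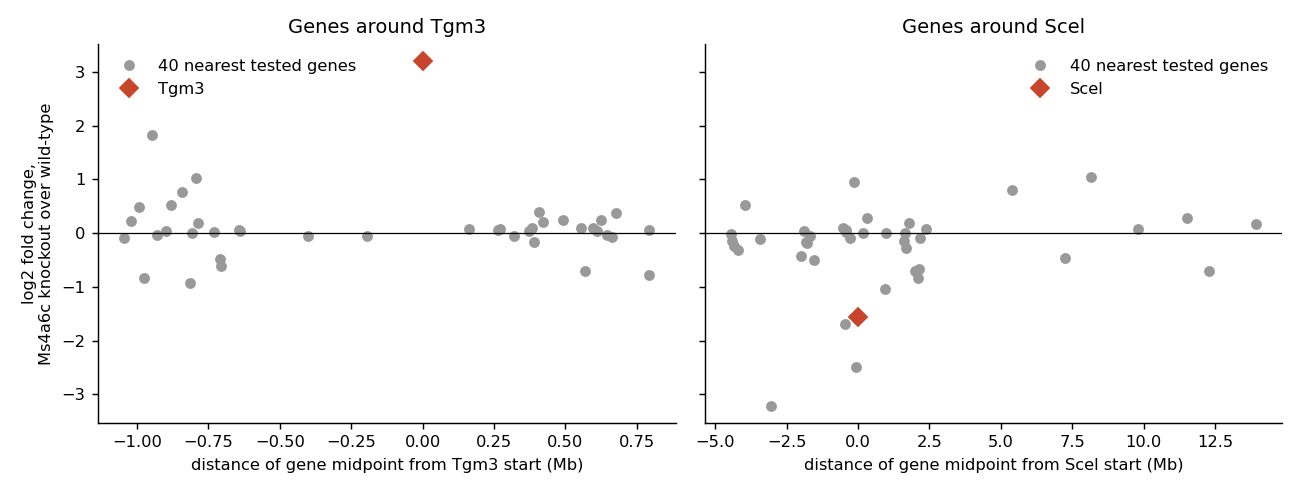
Log2 fold change, Ms4a6c knockout over wild type, of the 40 tested genes nearest to Tgm3 (left) and to Scel (right) against the distance of each gene's midpoint from the start of the member, in Mb. Tgm3 at 3.20 lies above all 40 of its neighbours, whereas 3 neighbours of Scel, with mean levels of at most 0.375 CPM, lie below its -1.56, and none of the grey points passed an adjusted p of 0.05.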

How the data were processed

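Directional polyA libraries of the main olfactory epithelium of 9 mice (3 per genotype, grouped by the labels) were examined. The authors aligned the reads with STAR 2.6.1, quantified them with RSEM 1.3.1 on mm10 (GRCm38), per the submitters' processing notes, and deposited expected counts per gene without normalization. Here the expected counts were rounded, and the 23225 genes with at least 10 counts over 9 mice were normalized by TMM. A single quasi-likelihood model of the 9 mice was fitted in edgeR 4.0.16 (R 4.3.3), and p-values were adjusted by Benjamini-Hochberg over all of these genes. DESeq2 1.42.0 was an alternative. The SE was derived from the log2 fold change and the F statistic of its test. Marker sums were compared by an exact permutation test, and correlations by permutation, in scipy 1.17.1. Coordinates came from GENCODE M21 (99.6% of genes matched) and promoters from RefSeq (7 of 8 members matched, Krt4 not), and transcripts were compared with blast 2.17.0. Counts per mouse were 13954591 to 21987174, and limits cover counting error only.

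The 8 genes and all lists were chosen with earlier results of these data known. The text names the 8 genes, Ms4a6c, called genes of the pathway lists, the 3 most abundant genes of each list, the 5 genes most like Tgm3 and Scel, and called neighbours. Other genes named, such as Tgm6, Epb42, Flg, Sprr2a2, Sprr1b, Gng13 and genes at 0, were chosen after their values were seen. Correlations were planned over 9 mice, and their tests were limited to the 6 wild-type and cluster knockout mice. The edgeR procedure was tested on simulated data with changes set in the cluster knockout group. Against the wild type it called 89 of 100 genes changed 4-fold, 70 of 100 changed 2-fold and 6 unchanged genes. Genes with the lowest counts were not among those changed, so the test does not cover them. The p-values measure the spread between these mice. Protein sequences were not analysed here, and some genes that this rule names are not reported here.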

Additional observations from a re-analysis of the deposited data

How the results depend on the processing

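For the cluster knockout against the wild type, 0 of the 7 members and 0 of the 74 other barrier genes were called under each of the 15 alternatives (normalization, filters, DESeq2, the replicate block, covariates and each mouse left out). Tgm1 and Krt4 gave no value under edgeR's default filter. Some fitted values changed sign. Tgm3, at -0.503 in the main fit, was 0.263 without wild-type mouse 1 and 0.122 also without cluster knockout mouse 2. Sprr3 was 0.274 without wild-type mouse 3 and 0.002 with the squamous sum as a covariate. Tgm1 was 0.145 without wild-type mouse 3, 0.101 and 0.296 without cluster knockout mice 2 and 3, and 0.045 with the sum of the less abundant squamous markers as a covariate. Ivl was -0.106 with the squamous sum as a covariate, and -0.069, -0.053 and -0.204 without wild-type mouse 3 or cluster knockout mice 1 and 3. With each mouse left out in turn, the range was -0.828 to 0.263 for Tgm3, -0.697 to 0.296 for Tgm1, -0.373 to 0.274 for Sprr3 and -0.204 to 0.319 for Ivl. The cause was not tested. The squamous sum differences (cluster knockout minus wild type, Ms4a6c knockout minus wild type, cluster minus Ms4a6c knockout) turned to 0.028, -0.032 and 0.06 as the mean of log2(CPM + 0.1), and to 3.155, -1.491 and 4.646 CPM without the 3 most abundant markers, chosen after the data were examined. With library size in place of TMM they were larger, at -5.841, 21.755 and -27.596 CPM. Between the knockouts the exact permutation p was 0.1, the lowest possible, with library size. It was also 0.1 with the mean of log2(CPM + 0.1), where the difference had the opposite sign. Without the 2 mice farthest from the median sum, r was 0.063 for Scel, and over all 9 mice, a setting added after the data were examined, it was -0.409 for Tgm1 and 0.227 for Ivl. For the Ms4a6c knockout over the wild type, Tgm3 ranged between 2.88 and 3.97 and Scel between -1.68 and -1.44.

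Mice with the same number did not deviate together. The mean correlation was -0.392 between the cluster knockout and the wild type, -0.026 between the Ms4a6c knockout and the wild type, and 0.021 between the knockouts. The 2 lowest pair values, -0.616 and -0.41, hold wild-type mouse 1 or cluster knockout mouse 2. No pairing by number was thus visible, but this measure cannot exclude one. With the replicate number as a block, 0 members and 0 other barrier genes were called, and Ivl was -0.015. Tgm1, Krt4 and Krt13 had too few counts to show moderate differences at this depth.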
